A study of Mus musculus with 3 samples.

Results

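The genes described here are 32 genes of glycolysis and of the response to low oxygen, taken by name from a list of glycolytic enzymes, sugar and lactate transporters and hypoxia-induced genes. All 32 were found among the 27998 genes of the 3 count matrices. At least 1 unique molecular identifier (UMI, a tag that counts 1 captured RNA molecule) was found for 30 of them in the kept cells of the control library and for all 32 in each of the other libraries. They fall into 7 groups by role. These are membrane transport (Slc2a1, Slc16a1, Slc16a3), hexokinases (Hk1, Hk2, Hk3), the upper steps of glycolysis (Gpi1, Pfkl, Pfkp, Pfkm, Aldoa, Aldoc, Tpi1) and the lower steps with lactate dehydrogenase (Gapdh, Pgk1, Pgam1, Eno1, Eno2, Pkm, Ldha). The others are regulators of flux (Pdk1, Pfkfb3, Pfkfb4), oxygen sensing (Hif1a, Egln1, Egln3) and other hypoxia-induced genes (Bnip3, P4ha1, Higd1a, Ndrg1, Ddit4, Adm).

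Single-cell RNA was measured in mouse suprarenal aorta. The control library came from 5 C57BL/6 mice on chow. The room air library came from 5 Apoe-/- mice that breathed room air and ate a high-fat (Western) diet for 16 weeks. The aneurysm library came from 4 Apoe-/- mice on the same diet that breathed cigarette smoke for 16 weeks and were chosen because they had a measurable dilatation. Aortas of a group were pooled before leukocytes (CD45+CD31-) and CD45-CD31+ cells were sorted, which gave 1 library per group. Loss of Apoe and the diet came together in the first comparison, room air against control, and cannot be told apart. Smoke and the selection for a dilatation came together in the second, aneurysm against room air. Age and sex of the mice are not given in the sources used here. With 1 library per group there is no replicate, so no test was made, and every interval below is a 95% interval for counting error only.

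In glycolysis, glucose enters a cell through facilitative transporters, is phosphorylated by hexokinases and is converted to pyruvate, which lactate dehydrogenase can reduce to lactate for export by monocarboxylate transporters. When oxygen is low, prolyl hydroxylases of the Egln family stop marking the transcription factor subunit HIF-1 alpha for degradation, and HIF-1 binds a short DNA core near many genes of glycolysis. Activated macrophages are known for a high rate of glycolysis, and thick atherosclerotic lesions are known to hold poorly oxygenated regions.

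The promoters of 5 members are shown first because the results below turn on these genes, which were chosen after their levels were seen. Slc2a1, Slc16a3, Pgk1 and Ldha were higher in room air macrophages than in control macrophages. Ddit4 is shown because it was the member past 1.5-fold in the other direction, with an interval that held 1 and a room air level near its free RNA estimate. Each sequence is the 250 bases before the gene's start in RefSeq on GRCm38.p6, in the direction of the gene. The core of the HIF-1 binding sequence was searched as ACGTG and GCGTG on both strands (which reads CACGT and CACGC on the strand shown), and capitals mark each match. Overlapping matches, such as the CACGTG of Ldha, were counted once. The windows are chr4:119108495-119108744 (+ strand, Slc2a1), chr11:120948817-120949066 (+ strand, Slc16a3), chrX:106186850-106187099 (+ strand, Pgk1), chr7:46845554-46845803 (+ strand, Ldha) and chr10:59951771-59952020 (- strand, Ddit4).
Slc2a1: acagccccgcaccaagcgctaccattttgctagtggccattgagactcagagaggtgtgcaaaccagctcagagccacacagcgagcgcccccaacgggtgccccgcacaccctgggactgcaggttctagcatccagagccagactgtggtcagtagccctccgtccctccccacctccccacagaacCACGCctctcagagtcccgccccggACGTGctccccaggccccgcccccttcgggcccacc
Slc16a3: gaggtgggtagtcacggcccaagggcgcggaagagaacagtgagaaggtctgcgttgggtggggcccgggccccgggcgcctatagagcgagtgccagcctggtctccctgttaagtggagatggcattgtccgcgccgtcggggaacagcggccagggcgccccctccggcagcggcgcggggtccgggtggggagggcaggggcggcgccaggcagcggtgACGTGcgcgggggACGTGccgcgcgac
Pgk1: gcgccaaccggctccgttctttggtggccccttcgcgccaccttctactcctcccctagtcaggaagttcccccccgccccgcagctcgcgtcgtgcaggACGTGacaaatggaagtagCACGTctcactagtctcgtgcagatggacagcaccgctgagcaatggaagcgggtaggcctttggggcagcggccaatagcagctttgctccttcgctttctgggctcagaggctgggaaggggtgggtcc
Ldha: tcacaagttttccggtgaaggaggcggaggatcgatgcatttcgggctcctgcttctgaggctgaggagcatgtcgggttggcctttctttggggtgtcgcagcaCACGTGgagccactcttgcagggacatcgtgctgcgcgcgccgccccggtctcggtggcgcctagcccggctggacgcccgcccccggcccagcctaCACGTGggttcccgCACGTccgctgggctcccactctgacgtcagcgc
Ddit4: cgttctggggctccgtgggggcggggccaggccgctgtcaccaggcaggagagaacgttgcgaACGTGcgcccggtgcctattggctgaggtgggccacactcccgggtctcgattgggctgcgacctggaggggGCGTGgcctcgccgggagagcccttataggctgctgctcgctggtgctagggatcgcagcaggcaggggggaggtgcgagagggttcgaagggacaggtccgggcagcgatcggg
The Ldha window held 3 separate matches and the other 4 windows held 2 each, at most 187 bases before the start. Of the 32 members, 31 had a window in the RefSeq table, and 25 of those (80.7%) held at least 1 match in their first listed window. At least 2 matches were found in 15 members (48.4%). The first listed windows of Hk1, Gpi1, Aldoa, Tpi1, Eno2 and Pkm held 0 matches, although another window of Hk1, Aldoa and Pkm held at least 1. Of these, Aldoa, Tpi1 and Pkm were also higher in room air macrophages than in control macrophages. The same search found at least 1 match in 38.6% of the windows of all 27025 genes in that table and at least 2 in 13.6%. Among the 7297 genes with a window of the 8968 measured in macrophage-like cells in the first comparison, the shares were 58.5% and 25.5%. A match describes the letters of the window and does not show that a factor bound there.

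The libraries held 2568192 to 16698309 UMIs. The labels state 738 control, 1736 room air and 2685 aneurysm cells, the files hold 782, 1851 and 2842 barcodes, and 773, 1821 and 2775 of these were kept. Control was the shallowest library, with a median of 2681 UMIs per kept cell against 3835 in room air and 4377 in aneurysm. Apoe had 10501 CPM (UMIs of the gene per 1000000 UMIs) over all control cells and 17.1 and 12.8 CPM in the libraries labelled Apoe-/-. A UMI of Ptprc, which encodes CD45, was found in 49.4% to 75.5% of cells and one of Pecam1, which encodes CD31, in 10.2% to 15.2%. Barcode sequences shared between libraries numbered 4 between control and room air, 5 between room air and aneurysm and 0 between control and aneurysm. RNA released into the suspension, estimated from 12 genes of one lineage counted in cells of another, was estimated at 7.89% of the UMIs of a cell in the control library, 26.2% in room air and 10.97% in aneurysm. Levels below are CPM of the UMIs summed over all cells of a class, and UMIs were counted from the 3' end of transcripts, so they were not divided by gene length and levels of different genes are not compared. Eno1 has the near-identical copy Eno1b, several glycolytic genes have processed pseudogenes, and 13 members overlap a gene on the other strand and 1 (Pfkm) a gene on the same strand. The sources used here do not say how reads that fit more than one gene were counted.

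Cell classes carry the suffix -like because they were named here from marker genes. The clustering left all 32 members out, so that cells were not grouped by the genes under study. The macrophage-like class joined 3 of 27 clusters, each with 9 of 9 macrophage markers detected but with 0 of them among its 10 leading genes. Cluster 7 (Apoe, Ccl24, Lyve1) held 285 of the 297 control macrophage-like cells. Cluster 3 (Gpnmb, Spp1, Mmp12) held 199 and cluster 5 (Ccl12, Ifit3, Fcgr4) 212 of the 422 room air cells. In aneurysm, cluster 3 held 301 and cluster 5 held 150 of 460 cells. The clusters that hold most of the class therefore differ between control and the other libraries.

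Macrophage-like cells of the room air library carried more RNA of most measured glycolytic enzymes and of the transporters Slc2a1 and Slc16a3 than those of the control library, while Hk2 was level and Gpi1 differed little. The sum over the 32 members was 2165 CPM for control (2080 to 2254), 4563 for room air (4487 to 4639) and 5239 for aneurysm (5165 to 5314). The ratio of room air to control was 2.11 (2.02 to 2.20), and without Gapdh, which had the most UMIs of any member in control, it was again 2.11 (2.01 to 2.22). Of the 32 members, 26 had at least 20 UMIs in the pair of libraries and count as measured. Of these, 17 were at least 1.5-fold higher in room air, against 24.9% of the 8968 genes measured there, and 1 was at least 1.5-fold lower, against 15.1%. The median log2 ratio was 0.84 over the 26 members and 0.12 over all genes measured. Under the minimum were Pfkm, Aldoc, Eno2, Slc16a1, Egln3 and Adm, with 0 to 16 UMIs in a library. Of these, Pfkm had 7.23 CPM in control and 2.29 in room air, and Aldoc 5.42 and 1.96, each from 8 or fewer UMIs.

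Much of the difference was carried by cluster 3. Without that cluster, 9 of the 24 members still measured were at least 1.5-fold higher in room air, against 20.9% of all genes, and the summed ratio was 1.39. The ratio of Slc16a3 was then 1.72 and that of Pkm 1.84, while Aldoa, Tpi1, Gapdh, Eno1, Pfkp, Hk3 and Ndrg1 lay between 1.14 and 1.49, under the fold. Without cluster 5 the summed ratio was 2.61. Cluster 6 (Ccl8, Ednrb, Cd209f) also had macrophage markers but was not part of the class, as described below. Folr2 and Cbr2 were among its leading genes, and Lyve1, Cd163 and Timd4 among those of cluster 7, all listed here as resident macrophage genes. Fcna was a leading gene of both. The class ratios of room air to control thus set mostly cluster 7 against clusters 3 and 5, without cluster 6. In room air cells of cluster 6 the members summed to 2965 CPM (2861 to 3072), beside 2145 (2057 to 2235) in cluster 7 of control. A list of 12 dissociation stress genes summed to 3278 CPM for control, 2599 for room air and 2100 for aneurysm macrophage-like cells. Gene by gene, 7 of the 12 were higher and 5 lower in room air than in control, with a median log2 ratio of 0.10. The median mitochondrial share was 2.66%, 1.96% and 1.86%. Viability before loading was 73% for control, 91% for room air and 94% for aneurysm, and the macrophage-like cells had medians of 3202, 6030 and 7098 UMIs. The part of these measures in the result was not tested. With the estimated free RNA subtracted, 17 of 25 members were past the fold and the summed ratio was 2.24. The share of all genes past the fold after subtraction is not given here.

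**Figure D1:**
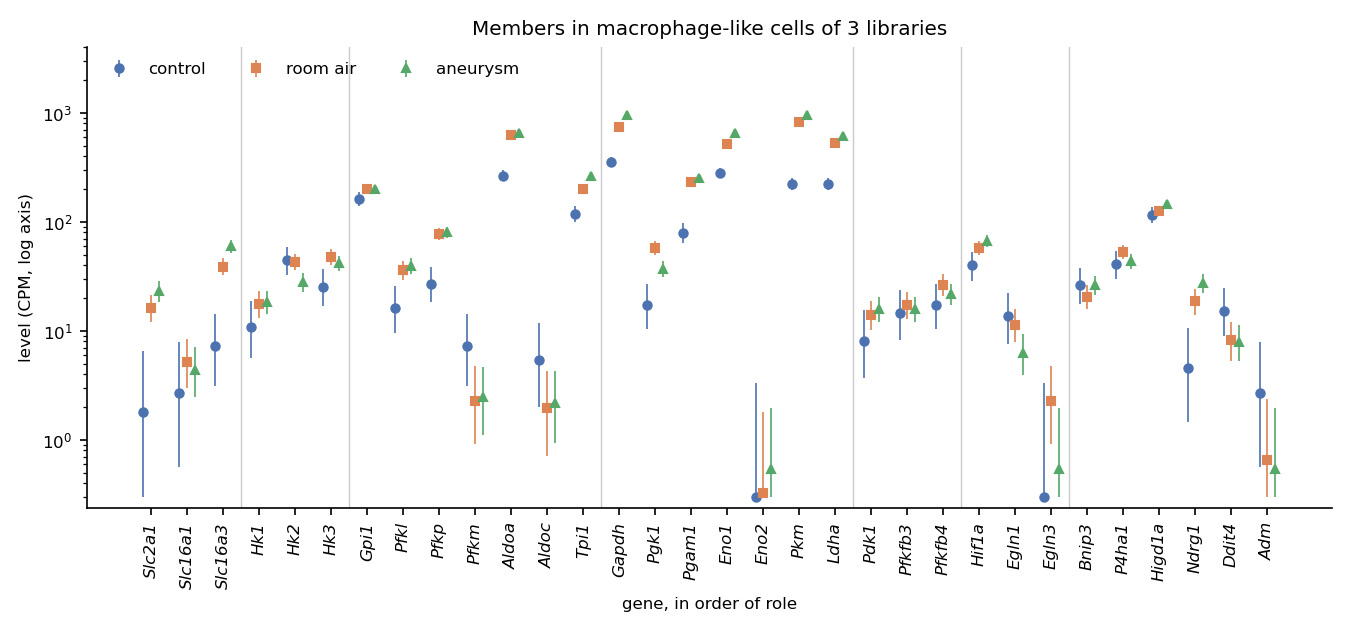
Level of each of the 32 members in macrophage-like cells (CPM, log axis), in order of role, with grey lines between the 7 groups. Circles are control, squares room air and triangles aneurysm, bars are 95% counting intervals, and levels of 0 (Eno2 and Egln3 in control) are drawn at the lower edge. The lower steps such as Pkm and Pgam1 show control well below both other libraries, while Hk2, Bnip3 and Higd1a do not.

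Of the 7 role groups, transport differed most, with a median log2 ratio of 2.80 over its 2 measured genes. Slc2a1, which encodes the glucose transporter GLUT1, had 1.81 CPM for control, 16.3 for room air and 23.2 for aneurysm macrophage-like cells, from 2, 50 and 85 UMIs. The ratio of room air to control was 9.04, with a wide interval of 2.38 to 76.7 set by the 2 control UMIs. Slc16a3, which encodes the lactate exporter MCT4, had 7.23 CPM for control, 38.9 for room air and 59.9 for aneurysm. The ratio of room air to control was 5.38 (2.64 to 12.8). For both genes the control library was the low one, and its interval did not overlap those of room air and aneurysm. Slc16a1, which encodes the transporter MCT1, had only 3, 16 and 16 UMIs, at 2.71, 5.23 and 4.36 CPM.

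Among the hexokinases, which phosphorylate glucose, only the isoenzyme Hk3 was past the fold with an interval that excluded 1. Hk3 had 25.3 CPM for control, 47.7 for room air and 41.7 for aneurysm, and the first ratio was 1.89 (1.25 to 2.94). Hk2 had 44.3, 43.1 and 28.1 CPM, so control and room air did not differ beyond counting error and aneurysm was lower. Hk1 had 10.8, 17.6 and 18.3 CPM, with a ratio of 1.63 and an interval of 0.86 to 3.34.

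In the upper steps, 4 of the 5 measured members were past the fold. Pfkp encodes the platelet-type subunit of phosphofructokinase, which commits sugar to glycolysis. It had 27.1 CPM for control, 77.1 for room air and 80.6 for aneurysm, a ratio of 2.85 (1.94 to 4.31) in the first comparison. Its liver-type counterpart Pfkl had 16.3, 35.9 and 39.2 CPM, a ratio of 2.21 (1.34 to 3.87). Aldoa, the aldolase that splits the sugar, had 265, 622 and 657 CPM, and Tpi1, the triose phosphate isomerase, 118, 200.2 and 261. Their ratios were 2.35 (2.08 to 2.67) and 1.69 (1.40 to 2.06). Gpi1, the isomerase of the second step, stayed under the fold at 163, 199 and 199 CPM, a ratio of 1.22 (1.03 to 1.45).

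All 6 measured members of the lower steps were past the fold, with a median log2 ratio of 1.40. Pkm, which encodes the muscle-type pyruvate kinase of the last step, had 221 CPM for control, 828 for room air and 946 for aneurysm, and the ratio of room air to control was 3.74 (3.28 to 4.29). Pgk1, a phosphoglycerate kinase that makes ATP, had 17.2, 57.8 and 37.0 CPM, a ratio of 3.37 (2.09 to 5.73). Pgk1 was thus high in room air, low in control and between them in aneurysm, and the 3 intervals did not overlap. Pgam1, the phosphoglycerate mutase, had 79.5, 233 and 251 CPM, a ratio of 2.93 (2.35 to 3.70). Ldha, which makes lactate, had 220.4, 524 and 615 CPM, a ratio of 2.38 (2.08 to 2.73). Gapdh had 355, 739 and 946 CPM and Eno1, an enolase, had 280.0, 519 and 648. Their ratios were 2.08 (1.87 to 2.32) and 1.85 (1.64 to 2.10). For all of these except Pgk1 the order was control, room air, aneurysm.

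The regulators, sensors and other hypoxia-induced genes did not follow as a block. Ndrg1, a stress-responsive gene induced by low oxygen, had 4.52 CPM for control, 18.6 for room air and 27.2 for aneurysm, and the first ratio was 4.12 (1.67 to 13.2). Pdk1, the kinase that closes the entry of pyruvate into the mitochondrion, had 8.13, 14.1 and 15.8 CPM, and Pfkfb4, which makes the activator of phosphofructokinase, had 17.2, 26.5 and 21.8. Both passed the fold at 1.73 and 1.54, with intervals that held 1 (0.83 to 4.03 and 0.93 to 2.69). Hif1a, the gene of HIF-1 alpha itself, stayed just under the fold at 39.8, 57.8 and 67.3 CPM, a ratio of 1.46 (1.04 to 2.07). P4ha1, a collagen prolyl hydroxylase, had 40.7, 52.9 and 43.6 CPM and Higd1a, a mitochondrial protein gene, 116, 125 and 147. Their ratios were 1.30 and 1.08. Bnip3, a mitophagy receptor gene, had 26.2, 20.6 and 26.1 CPM. Ddit4, which encodes the mTORC1 inhibitor REDD1, was the member past the fold in the lower direction, at 15.4, 8.17 and 7.90 CPM, 1.88-fold lower in room air with an interval of 0.95 to 3.62. In room air the estimated free RNA of Ddit4 amounted to 7.39 CPM, which is 90.5% of its level in these cells.

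**Figure D2:**
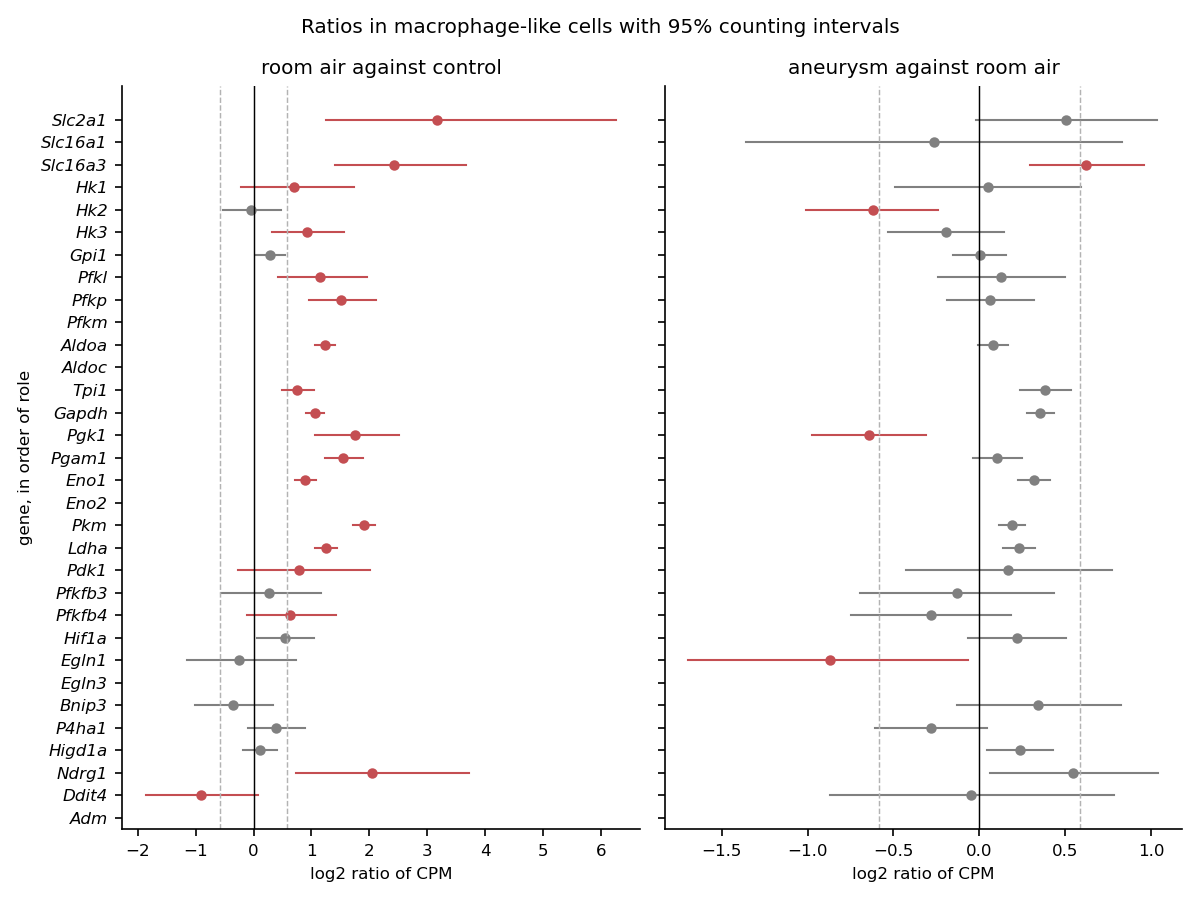
Log2 ratio of CPM in macrophage-like cells for room air against control (left) and aneurysm against room air (right), with 95% counting intervals. Dashed lines mark 1.5-fold, red marks the members past it, and members under the count minimum are left blank. On the left 17 members lie right of the fold line and 1 left of it, and on the right 1 and 3.

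The second comparison, aneurysm against room air, gave small differences in macrophage-like cells. The summed ratio was 1.15 (1.12 to 1.17). Of 27 members measured, 1 was at least 1.5-fold higher in aneurysm, against 4.80% of all 9692 genes measured, and 3 were at least 1.5-fold lower, against 8.40%. Slc16a3 was the higher one, at 1.54 (1.23 to 1.94), just past the fold. Over the other settings tried its ratio ran from 1.09 to 1.64, and the count of 1 became 0 in several of them. Lower were Hk2 (1.54-fold, 1.18 to 2.01), Pgk1 (1.56-fold, 1.24 to 1.97) and Egln1 (1.83-fold, 1.05 to 3.24). Egln1 encodes the main oxygen-sensing prolyl hydroxylase and had 13.6 CPM for control, 11.4 for room air and 6.26 for aneurysm, from 15, 35 and 23 UMIs. Just under the fold were Ndrg1 at 1.46 (1.05 to 2.06) and Slc2a1 at 1.42 (0.99 to 2.05). The intervals of Tpi1, Gapdh, Eno1, Pkm and Ldha also excluded 1, at ratios of 1.31, 1.28, 1.25, 1.14 and 1.18.

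Cluster 3 made up more of the aneurysm class than of the room air class, so the clusters were also compared one at a time. Within cluster 3 the members together had 5687 CPM in room air and 5965 in aneurysm, a ratio of 1.05 (1.02 to 1.08). Of 27 members, 1 was past the fold higher (6.75% of all genes) and 2 lower (7.52%). These were Slc2a1 at 1.52 (1.02 to 2.32), and in the lower direction Pgk1 at 1.57-fold (1.21 to 2.03) and Egln1. Within cluster 5 the summed ratio was 1.13 (1.08 to 1.19), and of 24 members 0 were higher (6.06%) and 3 lower (11.2%). Lower there were Pgk1 at 2.44-fold (1.36 to 4.59), Hk2 at 1.88-fold (1.24 to 2.92) and Pfkfb3. Cluster 6 (Ccl8, Ednrb, Cd209f) had macrophage markers but a dendritic cell gene among its leading genes and is compared by number, with 127 room air and 219 aneurysm cells. Its summed ratio was 1.06 (1.02 to 1.11), with 3 of 26 members higher (7.85%) and 2 lower (9.97%). In cluster 6, Pdk1 had 6.77 CPM in room air and 21.3 in aneurysm, a ratio of 3.14 (1.41 to 8.26), while P4ha1 was 1.58-fold lower (1.05 to 2.34). Pgk1 was lower in aneurysm in clusters 3 and 5 and about level in cluster 6, at 25.1 and 26.5 CPM.

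Cluster 3, whose leading genes Gpnmb, Spp1 and Mmp12 are known from lipid-laden macrophages, had more RNA of most glycolytic members than cluster 5 in the same library. Their sum was 5687 CPM in cluster 3 and 3009 in cluster 5 of the room air library, beside 5965 and 3408 in the aneurysm library. In room air, 14 of 26 members were at least 1.5-fold higher in cluster 3, against 14.0% of all genes, and 4 were lower, against 17.0%. In aneurysm the counts were 15 (15.3%) and 2 (14.6%). Of the 26 members measured in both libraries, 14 were past the fold higher in both. These were Slc2a1, Hk3, Pfkp, Aldoa, Tpi1, Gapdh, Pgk1, Pgam1, Eno1, Pkm, Ldha, Slc16a3, Pdk1 and Ndrg1. Pfkfb4 and Ddit4 were past it lower in both, and 0 were past it in opposite directions. Both intervals of Ddit4 held 1 (0.25 to 1.58 and 0.27 to 1.44), and its 6.17 CPM in cluster 3 of room air lay below its free RNA estimate of 7.39 CPM. Cluster 3 did not stand above monocyte-like cells in the same way. There, the members summed to 5308 CPM in room air and 5942 in aneurysm. In room air, 5 of 26 members were past the fold higher in cluster 3 than in monocyte-like cells (20.9% of all genes) and 5 lower (17.05%). In aneurysm, 3 of 25 were higher (17.3%) and 4 lower (14.3%). Since the cells were clustered on other genes of the same cells, these contrasts describe the clusters and were not tested.

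Slc16a3 and Ndrg1 were well above their cluster 5 levels in both libraries. Slc16a3 had 57.8 CPM in cluster 3 and 12.9 in cluster 5 in room air, and 76.6 and 17.2 in aneurysm, ratios of 4.48 (2.63 to 8.13) and 4.45 (2.71 to 7.79). Ndrg1 had 28.0 and 5.64 CPM in room air and 36.4 and 4.05 in aneurysm, ratios of 4.97 (2.24 to 12.99) and 8.98 (3.397 to 33.6). Pkm was 2.78-fold (2.52 to 3.08) and 2.35-fold (2.13 to 2.59) higher in cluster 3. The 2 libraries gave close ratios for Slc16a3 and Pkm. For Slc2a1 they were 1.79 (0.94 to 3.59) and 7.58 (2.85 to 28.5), and the second rests on 4 UMIs in cluster 5. The stress list had 1957 and 1860 CPM in cluster 3 and 3462 and 2678 in cluster 5, and the median cell held 7684 and 7800 UMIs in cluster 3 and 4839 and 5798 in cluster 5. The part of depth and stress in this contrast was not tested.

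**Figure D3:**
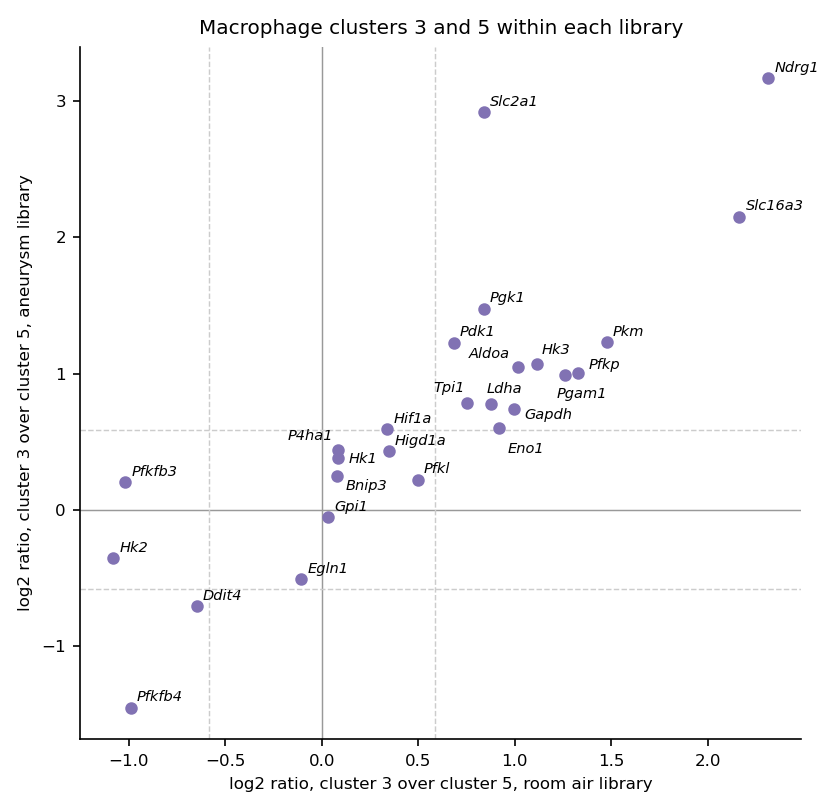
Log2 ratio of CPM in cluster 3 over cluster 5 in the room air library (horizontal axis) and in the aneurysm library (vertical axis) for the 26 members measured in both, with dashed lines at 1.5-fold. The 14 members past the fold in both libraries lie at the upper right, and Pfkfb4 and Ddit4 at the lower left.

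Outside the macrophages, room air cells also had higher summed levels than control cells in each class with enough cells, with no free RNA subtracted. The ratio was 1.51 (1.32 to 1.72) in B cell-like, 1.45 (1.32 to 1.60) in monocyte-like, 1.33 (1.20 to 1.48) in cDC1-like and 1.34 (1.15 to 1.57) in ILC2-like cells. In cluster 2, the T cell cluster led by Dapl1, Lef1 and Cd8b1, it was 1.35 (1.21 to 1.51). In B cell-like cells 9 of 14 measured members were past the fold higher, against 24.9% of all genes. In monocyte-like cells it was 9 of 17, against 29.2%, and in cluster 2 it was 7 of 14, against 30.1%. The median log2 ratios of the members were 0.79, 0.62 and 0.55, beside 0.09, 0.19 and 0.22 over all genes. These classes had 99, 38 and 90 control cells. The excess over all genes was not seen in every class. In cDC1-like cells 2 of 11 members were past the fold higher, a smaller share than the 26.7% of all genes. In the whole T cell-like class it was 8 of 18, against 40.6%, and in ILC2-like cells 3 of 7, against 19.9%. The free RNA estimate was 26.2% in room air and 7.89% in control. In B cell-like cells it amounted to 44.9% of the level of Gapdh in room air and 11.9% in control. For Pkm these shares were 46.8% and 12.8%, for Eno1 33.3% and 9.84%, and for Aldoa 30.2% and 6.43%. The part of free RNA in these ratios was not tested.

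Ldha was the member past the fold in all 6 classes compared, at ratios from 1.57 in cDC1-like to 2.38 in macrophage-like cells. In ILC2-like cells, innate lymphocytes that make type 2 cytokines, Ldha had 986 CPM for control, 1855 for room air and 1563 for aneurysm, a first ratio of 1.88 (1.39 to 2.57). Pfkp had 6.97 CPM in control B cell-like cells, 70.8 in room air and 44.3 in aneurysm. Its ratio of 10.2 rests on 1 control UMI, with an interval of 1.72 to 411. In cluster 2 Pfkp had 22.4, 72.7 and 63.5 CPM, a ratio of 3.25 (1.13 to 12.8). The estimated free RNA of Pfkp was 21.9 CPM in room air, below its level in both. In monocyte-like cells, P4ha1 had 15.1, 75.9 and 36.1 CPM, a first ratio of 5.04 (1.29 to 43.3), and Hif1a had 37.7, 127 and 144, a ratio of 3.38 (1.37 to 10.8). The lowest monocyte ratio past the fold with an interval above 1 was that of Gapdh, at 1.56 (1.21 to 2.03), and in B cell-like cells that of Gpi1, at 1.73 (1.10 to 2.85). In cDC1-like cells, which present antigen to CD8 T cells, Aldoa was 1.68-fold (1.18 to 2.43) and Ldha 1.57-fold (1.25 to 1.98) higher in room air. The free RNA estimate of Ldha was 24.7 CPM in control and 135 in room air, which is 16.1% and 46.8% of its level in B cell-like cells and 8.86% and 29.5% in monocyte-like cells. The ratio of 1.88 in B cell-like cells is given without subtracting it.

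Between aneurysm and room air, some members differed in the same direction in several classes. P4ha1 was lower in aneurysm in all 6 classes with enough UMIs, past the fold in 4 of them. In cDC2-like cells, a dendritic cell type that activates CD4 T cells, P4ha1 had 39.8 CPM in room air and 21.4 in aneurysm, 1.86-fold lower (1.15 to 2.98). In monocyte-like cells P4ha1 was 2.10-fold lower (1.31 to 3.34), and in cluster 2 it was 2.31-fold lower (1.18 to 4.45). Pgk1 was lower in all 8 classes measured and past the fold in 2, with ratios of aneurysm to room air from 0.55 in monocyte-like cells to 0.92. Slc16a3 was higher in all 5 classes measured, with ratios from 1.01 to 2.69, and past the fold in 3. Ndrg1 was higher in all 4 classes measured, past the fold in 1. All of these classes come from the same pair of libraries and are not independent of each other. Free RNA was estimated higher in room air than in aneurysm, at 12.8 and 3.75 CPM for Pgk1 and 11.4 and 3.00 CPM for P4ha1. In B cell-like cells Pgk1 had 30.1 and 27.7 CPM, a gap smaller than that between its free RNA estimates, so no lower level beyond free RNA was seen there. P4ha1 in B cell-like cells was 64.4% free RNA by the same estimate in room air and 34.4% in aneurysm. The summed stress list was also lower in aneurysm than in room air in all 11 classes, and its part in these differences was not tested.

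Ddit4 was lower in aneurysm than in room air in B cell-like cells and in T cell cluster 2. In B cell-like cells it had 48.8 CPM for control, 37.2 for room air and 7.92 for aneurysm, 4.70-fold lower in aneurysm than in room air (2.12 to 11.2). In cluster 2 it had 50.3, 106 and 16.3 CPM, 6.51-fold lower (3.63 to 12.1). The gap was smaller over the whole T cell-like class, at 47.0 CPM for control, 58.7 for room air and 24.8 for aneurysm. Ddit4 levels of clusters 9 and 11 are not given here. The estimated free RNA of Ddit4 was 7.39 CPM in room air and 2.19 in aneurysm, below these levels. In ILC2-like cells Ddit4 was level, at 118, 90.5 and 117 CPM, and in cDC2-like cells it had 43.2 and 44.9 CPM. Over the 12 stress genes, B cell-like cells had 1485, 1261 and 867.7 CPM and cluster 2 had 799.8, 993 and 771 CPM, whose part in the Ddit4 values was not tested.

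**Figure D4:**
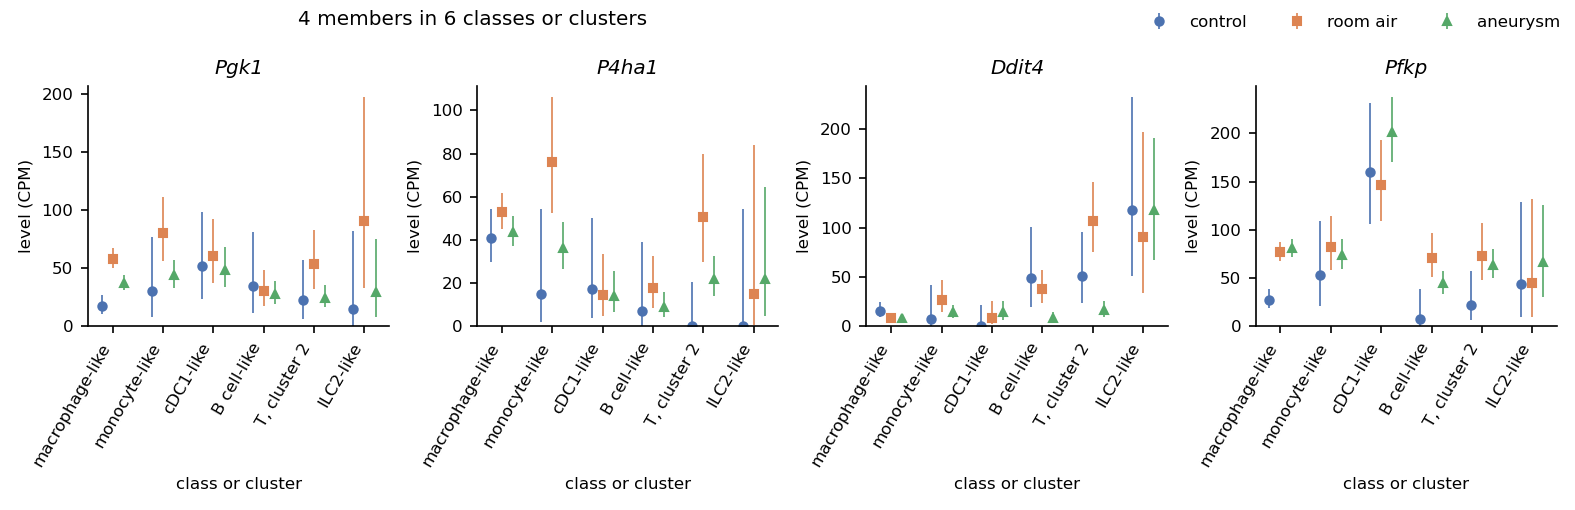
Levels (CPM, linear axes) of Pgk1, P4ha1, Ddit4 and Pfkp in 5 classes and in T cell cluster 2, with 95% counting intervals. Circles are control, squares room air and triangles aneurysm. P4ha1 in monocytes and cluster 2 and Pgk1 in macrophages peak in room air, and Ddit4 in cluster 2 lies at 106 CPM in room air and 16.3 in aneurysm.

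In the second comparison the counts of members past the fold were small in single classes. In B cell-like cells 4 of 19 members were lower, against 16.4% of all genes, and in cluster 2 it was 4 of 18, against 19.5%. Monocyte-like cells had 5 of 25 members higher (against 11.1% of all genes) and 5 lower (against 11.3%), above the share of all genes in both directions. Neutrophil-like cells had 2 of 24 higher (8.25%) and 2 lower (11.4%), and cDC2-like cells 3 of 25 higher (9.61%) and 1 lower (9.39%). In monocyte-like cells, Slc16a3 had 37.7 CPM for control, 58.0 for room air and 109 for aneurysm, 1.88-fold higher in the second comparison (1.23 to 2.98), while Pfkfb4 was 2.79-fold lower (1.55 to 5.03). Neutrophil-like cells had 36.0 and 96.8 CPM of Slc16a3, a ratio of 2.69 (1.70 to 4.43), and 79.8 and 41.8 CPM of Hk2, 1.91-fold lower (1.25 to 2.93). B cell-like cells had Pfkp 1.60-fold lower in aneurysm (1.04 to 2.44). In nonclassical monocyte-like cells Ldha was 1.84-fold higher (1.24 to 2.78) and Aldoa 1.64-fold lower (1.16 to 2.31), but with classes set cell by cell from markers the ratios of aneurysm to room air were 1.18 and 0.87.

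The T cell-like class differed in makeup between libraries. Over the whole class Pdk1 had 157 CPM in control and 58.7 in room air, 2.67-fold lower (1.67 to 4.17), and 102 in aneurysm. Cluster 2, which held 90 of the 93 control T cell-like cells but 123 of 403 in room air and 391 of 544 in aneurysm, had 162, 134 and 125 CPM of Pdk1. Within cluster 2 the intervals overlapped (109 to 233, 99.0 to 178 and 105 to 148). Cluster 9 (Gzmk, Nkg7, Cd8a) had 18.5 and 37.7 CPM of Pdk1, and cluster 11 (Izumo1r, Icos, Cd4) had 31.5 and 60.4. In the whole class Pfkp was 4.48-fold higher in room air than in control (1.70 to 16.8), and P4ha1 was 2.42-fold lower in aneurysm than in room air (1.51 to 3.95).

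For most members the class of highest level was not the same from library to library. Over the 6 classes with at least 25 cells in all 3 libraries (B, T, macrophage, monocyte, cDC1 and ILC2-like), 9 of 32 members had the same class highest each time, and 0 had it over 2-fold above the next in each. Over the 11 classes of room air and aneurysm, 14 had the same class highest in both and 2, Pfkfb3 and Eno2, had it over 2-fold above the next in both. These counts were not made over all genes, so whether they are particular to the members cannot be told. Pfkfb3, whose product raises the activator of phosphofructokinase, had 141 CPM (97.0 to 198) in room air and 158 (125 to 197) in aneurysm mature dendritic cell-like cells, which carry the migration receptor Ccr7. In every other class it had at most 27.7 CPM in those libraries, except in T cell cluster 11 with 36.8 in room air and cluster 6 with 28.0. Eno2, the neuron-type enolase, rested on 1 and 8 UMIs there. Eno1 had 197 and 267 CPM in mature dendritic cell-like cells, against 843 and 960 in monocyte-like cells.

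The hexokinases differed between some classes. Hk2 had 28.1 to 90.4 CPM in macrophage-like, monocyte-like and neutrophil-like cells, and 0 UMIs in cluster 2 of each library, where the limit of 3 counts is 16.8, 8.39 and 2.72 CPM. Hk3 had 25.3 to 47.7 CPM in macrophage-like cells and 0, 1 and 0 UMIs in B cell-like cells of control, room air and aneurysm. The levels did not split into myeloid and lymphoid cells throughout. In aneurysm, Hk2 was highest in ILC2-like cells at 44.0 CPM, on 6 UMIs, and Hk3 in gamma-delta T cell-like cells at 62.8 CPM, on 10 UMIs. Hk1 had 30.8 to 39.2 CPM in cluster 2, 47.1 and 60.9 in cluster 9 and 10.8 to 18.3 in macrophage-like cells. Slc16a3 was highest in nonclassical monocyte-like cells, with 106 CPM for room air (54.9 to 186) and 151 for aneurysm (97.0 to 225), intervals that overlapped those of monocyte-like cells. In B cell-like cells Slc16a3 had 7.08 and 3.17 CPM, at or below the free RNA estimates of 7.18 and 4.45.

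Hif1a was highest in T cell cluster 11 and in ILC2-like cells. Cluster 11 had 231 CPM (168 to 310) in room air and 238 (186 to 300) in aneurysm, and ILC2-like cells had 181 (93.5 to 316) and 147 (89.6 to 227) there, but 29.4 in control, where it rested on 2 UMIs. The intervals of cluster 11 and ILC2-like cells overlapped. Monocyte-like cells followed with 127 and 144 CPM, whose intervals overlapped those of ILC2-like cells. Ndrg1 had 341 CPM (249 to 456) in the 47 control endothelial-like cells, 34 of its 45 UMIs in cluster 20 (Klk10, Cytl1, Adh7), and at most 36.4 CPM (cluster 3 in aneurysm) in any leukocyte class or cluster. The Apoe-/- libraries held fewer than 25 endothelial-like cells each, so that no comparison was made. Adm, the adrenomedullin gene, and Egln3, an inducible prolyl hydroxylase, had 3 or fewer and 8 or fewer UMIs in each of these leukocyte classes except Adm in cDC2-like cells, with 4.

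**Figure D5:**
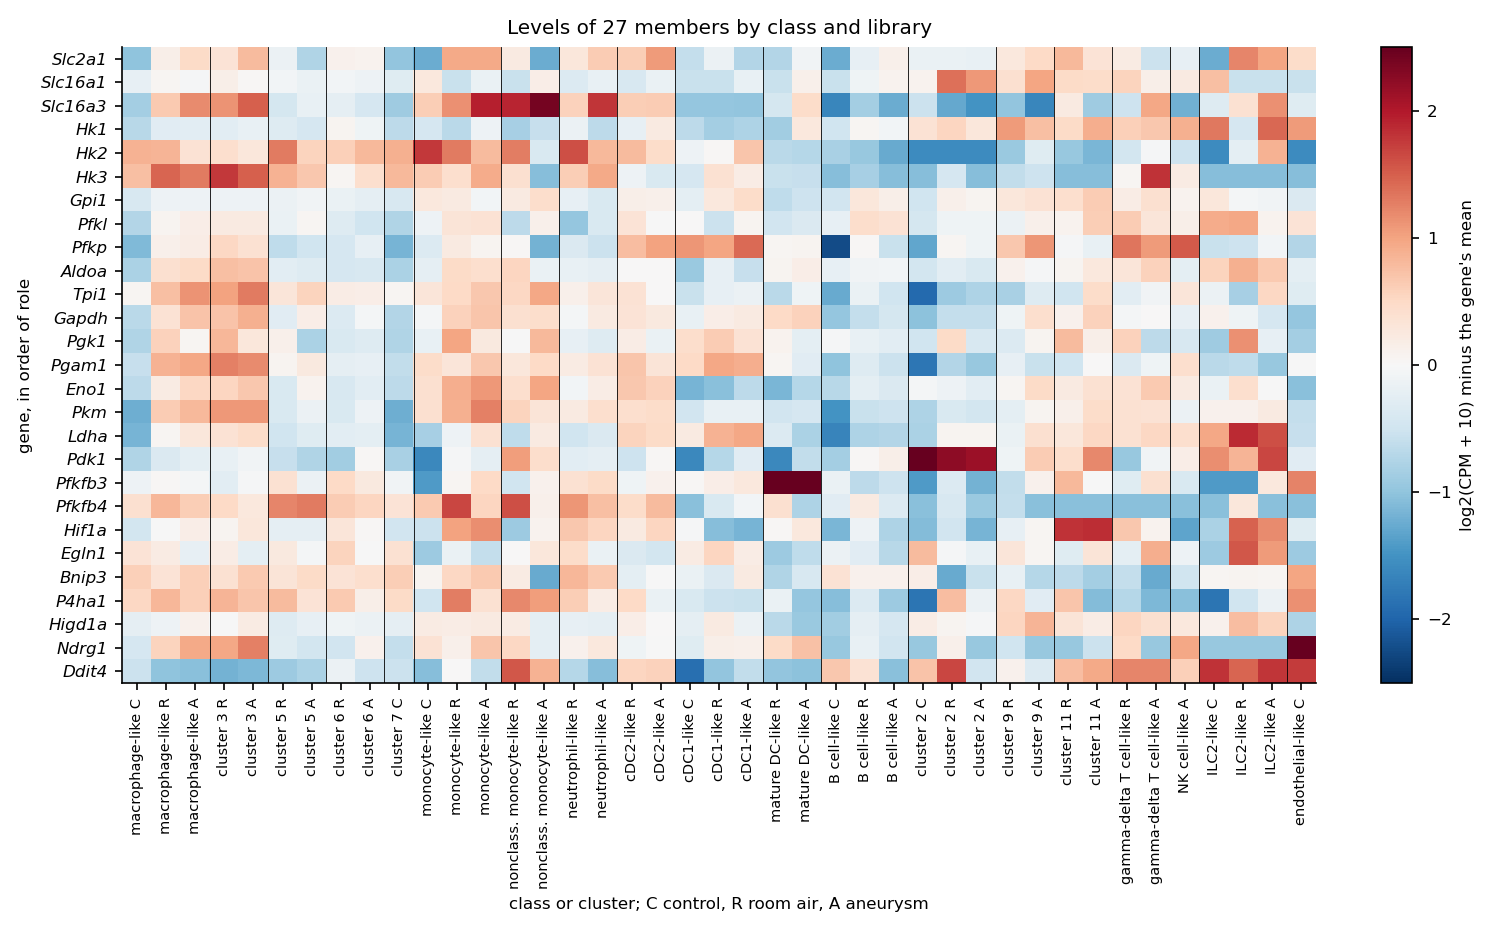
Level of 27 members (rows, in order of role) by class or cluster and library (columns, C control, R room air, A aneurysm), as log2(CPM + 10) minus the gene's mean over columns, so that colours compare columns and not genes. Pfkfb3 stands out in mature dendritic cells (mature DC), Pdk1 in cluster 2, Hif1a in cluster 11, Ldha in ILC2-like cells and Ndrg1 in control endothelial-like cells.

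Other genes of the same metabolism, from 5 lists of genes outside the 32, were compared in macrophage-like cells. Of 7 pentose phosphate genes, all measured, 4 were at least 1.5-fold higher and 0 lower in room air than in control. Taldo1, the transaldolase, had 186, 468 and 535 CPM, a ratio of 2.51 (2.17 to 2.92), and Pgd had 46.1, 122 and 132, a ratio of 2.65 (1.97 to 3.62), while G6pdx, the entry enzyme, had 36.1, 36.9 and 34.9. Of 7 measured other isoenzymes and sugar transporters, 6 were higher and 0 lower. Over all genes measured, 24.9% were higher and 15.1% lower. Genes of pyruvate entry into mitochondria had 1 of 9 higher and 1 lower, and glycogen genes 2 of 7 higher and 1 lower, shares of 28.6% and 14.3% that lie near those of all genes. The medians of the log2 ratio were 0.77, 0.91, 0.45 and 0.24, beside 0.12 over all genes. In aneurysm against room air, all 9 measured other isoenzymes and sugar transporters were lower, with a median log2 ratio of -0.37. Of these, 2 were past the fold (22.2% against 8.40% of all genes). The pentose phosphate genes had 0 of 7 past the fold. Pyruvate entry genes had 1 of 10 higher, glycogen genes 1 of 8 higher (against 4.80% of all genes), and both 0 lower. Ldhb, which encodes the lactate dehydrogenase subunit that favours pyruvate, had 7.23, 16.0 and 7.35 CPM.

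Among other oxygen-sensing genes and HIF targets, 5 of 17 were higher (29.4% against 24.9% of all genes) and 2 lower (11.8% against 15.1%) in room air macrophages than in control, near the shares of all genes. In aneurysm against room air 4 of 18 were higher (22.2% against 4.80%) and 0 lower (against 8.40%). Cluster 6 did not share this, with 1 of 15 higher (against 7.85%) and 3 lower (against 9.97%). In cDC2-like cells 1 of 13 was higher (against 9.61%) and 3 lower (against 9.39%), and in monocyte-like cells 3 of 15 (against 11.1%) and 2 (against 11.3%). In macrophage-like cells Arg1, the arginase gene, had 0 UMIs in control, where the limit of 3 counts is 2.71 CPM. It had 29.4 and 59.4 CPM in room air and aneurysm, a second ratio of 2.02 (1.57 to 2.61). Vegfa, the endothelial growth factor gene, had 0, 7.51 and 13.9 CPM, a second ratio of 1.85 (1.11 to 3.17), and Hilpda, a lipid droplet gene, 16.3, 24.5 and 39.5, a second ratio of 1.61 (1.21 to 2.16). Mif had 121, 229 and 312 CPM. Arg1, Vegfa and Hilpda were higher in cluster 3 than in cluster 5, with 81.2 against 4.05 CPM for Arg1, 17.5 against 5.07 for Vegfa and 47.1 against 17.2 for Hilpda in aneurysm. Within cluster 3 the ratios of aneurysm to room air were 1.74 (1.35 to 2.28) for Arg1, 1.48 (0.87 to 2.61) for Vegfa and 1.498 (1.08 to 2.09) for Hilpda. Bnip3l, a relative of Bnip3, had 174 CPM for control, 131 for room air and 100.2 for aneurysm, lowest in aneurysm.

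Shares of cells with a UMI were compared after each cell was thinned to 1000 UMIs, which left out 0 macrophage-like cells. Pkm was then found in 16.8% of control macrophage-like cells (12.8% to 21.6%), 46.9% for room air (42.1% to 51.8%) and 50.2% for aneurysm (45.6% to 54.9%). Unthinned, the shares of Pkm were 51.2%, 87.2% and 91.5%. Gapdh was found in 20.5%, 46.7% and 55.4% of thinned cells and in 52.9%, 87.0% and 94.4% unthinned. In B cell-like cells, thinned Pkm was found in 22.2%, 28.1% and 25.9%, so the gap between control and the other libraries was wider in macrophage-like cells. Slc16a3 was found in 0.67%, 3.32% and 5.44% of thinned macrophage-like cells (2.36%, 18.7% and 24.4% unthinned) and in 0%, 0.45% and 0.23% of thinned B cell-like cells, where 0 of 99 control cells allows a share of up to 3.66% (exact binomial, 95%). At 1000 UMIs per cell, 6 members were found in at least 10% of control macrophage-like cells, 8 in room air and 9 in aneurysm. The same count was not made over all genes, so it cannot be told whether this order is particular to the members.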

How the data were processed

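Single-cell 3' libraries (10x chemistry version 2) of the 3 pools were aligned to mm10 with Cell Ranger and STAR, per the submitters' processing notes; the sources used here give no versions. The authors deposited UMI counts per gene and barcode, without normalization. Barcodes with at least 200 genes and at most 10% mitochondrial UMIs were kept, and 96 with the highest score for simulated doublets (0.8% per 1000 barcodes) were removed, leaving 5369 cells. Cells were clustered (2000 variable genes without the members, 30 principal components, 15 neighbours, Leiden resolution 1) into 27 clusters and named from the markers of 21 classes, by a score of at least 0.6 that was set after the clusters were seen.

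UMIs were summed per class and library and given as CPM, with exact Poisson intervals for levels and exact conditional binomial intervals for ratios (95%, counting error only). A class needed 25 cells in a library and a gene 20 UMIs in the pair compared. Ratios of at least 1.5-fold were counted in 2 comparisons, and counts of 0 were set to 3 in ratios. The ratio calculation was tested on simulated data. Doublet removal, filters, cluster resolution, class assignment, scaling and free RNA were varied, and 4 alternatives that change the clustering or the macrophage-like class were chosen after seeing the data.

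The members and gene lists were chosen with earlier results of these data known. Named by rule were members at least 1.5-fold apart with an interval excluding 1 in macrophage-like cells, those with the highest and lowest such ratio in each other class, and the class of highest level. A part of the rule on a class over 2-fold above the next in all 3 libraries named no member. Other members and genes were named after their values were seen. Sequences are from RefSeq (GRCm38.p6). The labels count a smoke group without aneurysm, which is not analysed here. Python 3.11.15, numpy 2.4.6, scipy 1.17.1, pandas 2.3.3, leidenalg 0.10.2, igraph 0.11.9 and matplotlib 3.10.9 were used.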

Additional observations from a re-analysis of the deposited data

How the results depend on the processing

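With 1 library per group the intervals cover counting error, and differences between mice of a pool cannot be seen. No paired analysis was possible because each group has 1 library. None of the summed ratios of macrophage-like cells and of the 38 named ratios (18 to 38 of them in a setting) changed direction. The other classes' sums, the cluster contrasts and the other gene lists were not run under the alternatives. In macrophage-like cells, the main counts for room air against control were 17 members higher and 1 lower with a summed ratio of 2.11, and for aneurysm against room air 1 higher and 3 lower with 1.15. The first count stayed between 15 and 18 in every setting but the one without cluster 3. The share of all genes past the fold is given above for the main setting and for that one, and not for the others. With at most 5% mitochondrial UMIs and at least 500 genes, 2 were lower in room air (sum 1.875), and in aneurysm 0 were higher (sum 1.085). Without doublet removal the sums were 1.902 and 1.080 with 0 higher in aneurysm. Both settings also changed the class, since the Ccl8 and Ednrb cluster and 1 further cluster joined it. With classes set from each cell's own markers, 0 were lower in room air (sum 1.871) and 0 higher in aneurysm (sum 1.023). The room air sum was 1.942 with median centring, 2.002 without mitochondrial, ribosomal, haemoglobin and immunoglobulin genes and Apoe in the total, and 2.238, with 0 lower, after free RNA was subtracted. With a minimum of 1 UMI, 5 were lower in room air and 2 higher in aneurysm. Of the alternatives chosen after seeing the data, adding cluster 6 gave sums of 1.924 and 1.076 with 0 higher in aneurysm. Leaving out cluster 3 gave 9 higher and 0 lower in room air (sum 1.388) and 0 higher in aneurysm. Leaving out cluster 5 gave 2 lower in room air (sum 2.610) and a sum of 1.052 in aneurysm. Clustering with the members kept moved 0 of 38 named values, and 37 stayed past the fold (Pgk1 in aneurysm against room air, at 0.671, did not). Of 14 named members higher in room air macrophages, 7 stayed past the fold without cluster 3. Without thinning, 12, 23 and 24 members were found in at least 10% of macrophage-like cells in control, room air and aneurysm. This count was not made over all genes either. The alternative that leaves out clusters without a leading marker of their own gave no value, since none of the macrophage-like clusters has one. The cause of these changes was not tested.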
